A study of Mus musculus with 2 samples.

Results

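The RNA of 8 complement genes was followed in mouse colon: C3, C4b, C1s1, C1ra, Cfb, Serping1, Cd55 and Cd59a. They were listed by name as complement genes made by connective tissue cells, not chosen by a threshold, and all 8 were among the 17809 genes listed for the wild-type library and the 15972 listed for the reporter library.

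Complement is a cascade of plasma and tissue proteins that marks particles for removal and can end in pores in a target membrane. The proteases encoded by C1ra and C1s1 start the classical path together with C1q and cleave C4 and C2, after which C3 is cut and bound to the target, and factor B, encoded by Cfb, amplifies the deposit. Serping1 encodes the inhibitor of the C1 proteases, while Cd55 and Cd59a encode membrane proteins that protect host cells at the C3 step and at the pore; the liver makes most of the plasma proteins, but many tissues, gut included, make some of them locally.

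The data are droplet single-cell RNA libraries from the colon of female mice aged 8 to 12 weeks, 1 library per group, each pooled from 3 mice. For the wild-type library (strain C57BL/6), sorted EpCAM+ CD45- epithelial cells and EpCAM- CD45- other cells were mixed in equal parts, so the mixture does not give the proportions of cells in the tissue, and CD45+ immune cells were sorted away. For the reporter library, green cells were sorted from the mesenchyme of Pdgfra-H2B-eGFP mice, in which the Pdgfra locus drives a nuclear green protein, so cells without Pdgfra activity are largely missing. No cell can be assigned to a mouse, so there are no replicates and no test; every difference is a description of these 2 libraries.

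The deposited tables hold UMI counts that had been corrected to a common depth per cell, called corrected counts here. Their totals ran from 6120 to 16389 per cell in the 7495 wild-type cells (median 8972) and from 2314 to 4432 in the 4409 reporter cells (median 3150). The depth sequenced cannot be recovered from these values, kits differed between the libraries, and levels are therefore compared only within a library. Only 1 barcode occurred in both libraries.

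Cells were grouped with the 58 genes of a complement list kept out of the genes that form the clusters, and clusters were named by marker lists, with "-like" added because the names rest on RNA alone. Fibroblasts were divided into crypt bottom fibroblasts of types 1 and 2 (CBFs1-like, CBFs2-like) and crypt top fibroblasts (CTFs-like), the types of the original study. The wild-type library held 1135 CBFs1-like, 639 CBFs2-like and 815 CTFs-like cells among 2589 fibroblasts, beside 949 smooth muscle-like, 590 blood endothelial-like, 119 pericyte-like, 78 glia-like, 45 lymphatic endothelial-like, 40 immune-like and 2476 epithelial cells; 609 cells stayed unnamed. The reporter library held 2752 CBFs1-like, 852 CBFs2-like and 640 CTFs-like cells, or 4244 fibroblasts, beside 113 immune-like and 52 epithelial-like cells. Its CBFs1-like label is weaker. The clusters of 1221, 997 and 534 cells scored 0.37, 0.66 and 0.93 on the CBFs1 list, under the minimum of 1. They were typed by scores relative to other fibroblasts (0.84, 1.06 and 1.36). Leading genes include Tnfaip3, Cxcl2 and Saa3 in the first and Cxcl5, Cxcl9 and Cxcl2 in the last. All wild-type fibroblast clusters held 10 of the 10 listed fibroblast markers and the reporter ones 9 or 10, but the reporter epithelial-like cells held 9 and the immune-like cells 8 of them too. Among the CBFs2-like cells of the wild-type library, 134 formed a cluster of low complexity, with a median of 1729 genes per cell against 2799 in the other 505.

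Shares of cells above 0 are given with exact Clopper-Pearson 95% intervals, which cover counting error only. Free RNA can give some counts in cells that do not make a gene. The wild-type epithelial cells (median 3221.5 genes per cell, against 2606 in fibroblasts) served as the cells that should lack the fibroblast members: they were above 0 in 2.22% for C1ra, 3.39% for C1s1, 1.41% for C4b, 1.05% for C3 and 3.92% for Serping1. The shares in reporter cells that are not fibroblasts were larger, and their source was not tested. The epithelial-like cells there (median 1543 genes, against 1381 in fibroblasts) were above 0 in 17.3% for C1ra and C1s1, 11.5% for C3 and C4b and 30.8% for Serping1. The immune-like cells were above 0 in 43.4% for C1s1, 65.5% for Serping1, 30.1% for C4b, 23.9% for C3 and 23.0% for C1ra. Low shares in that library are therefore not read as expression.

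**Figure D1:**
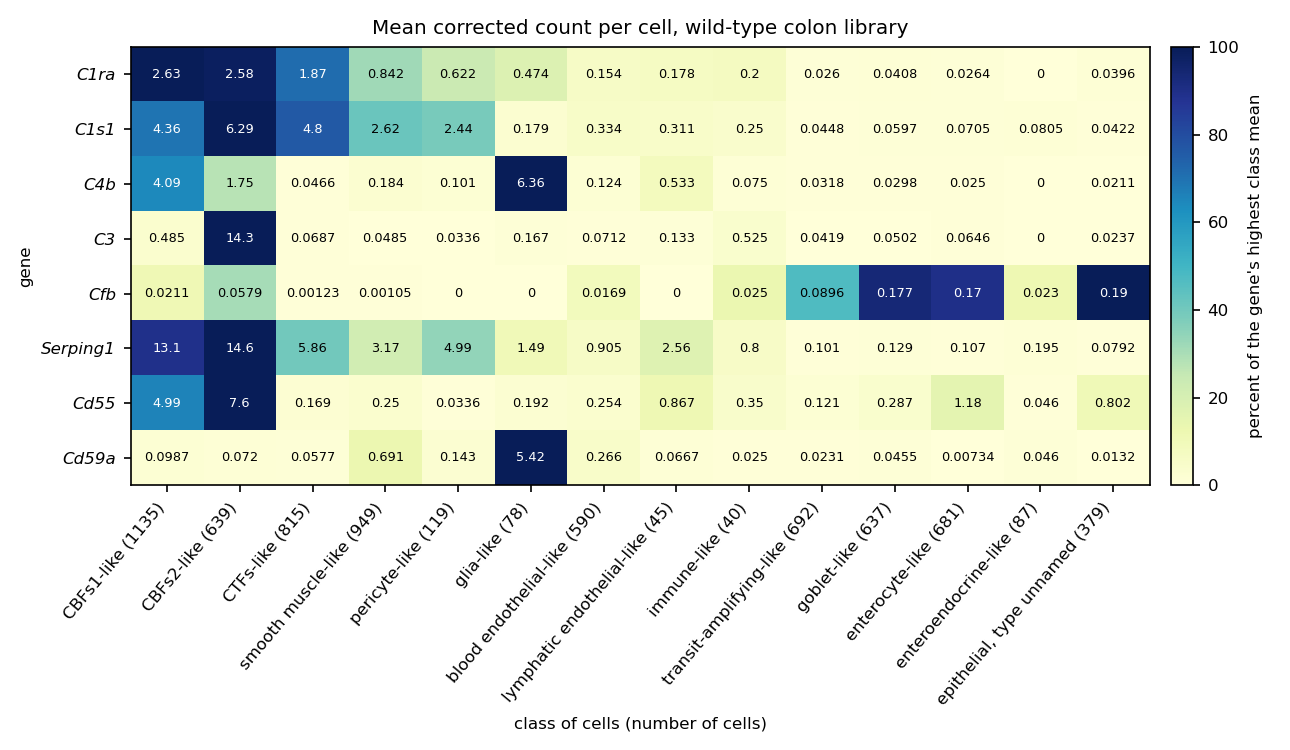
Mean corrected count per cell of the 8 genes (vertical axis) in the 14 named classes of the wild-type library (horizontal axis, number of cells in brackets). Colour gives the mean as a percent of the highest class mean of that gene, so colours compare classes and not genes; C3 stands out in CBFs2-like cells at 14.3, and C4b and Cd59a peak in glia-like cells.

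Most of the corrected counts of 6 of the 8 genes lay in fibroblasts, which made up 34.5% of the wild-type cells. The members had been listed as genes of connective tissue cells, with earlier results of these data known, so this count restates that choice. The share of all genes with most of their counts in fibroblasts is not given here. Fibroblasts held 97.0% of the C3 counts, 86.3% for C4b, 84.1% for Serping1, 83.7% for C1ra, 83.5% for Cd55 and 78.1% for C1s1. The exceptions were Cfb, with 13.5% in fibroblasts and 79.7% in epithelial cells, and Cd59a, with 13.0% in fibroblasts, 41.5% in smooth muscle-like cells and 26.8% in the glia-like cells, which were 1.04% of all cells.

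**Figure D2:**
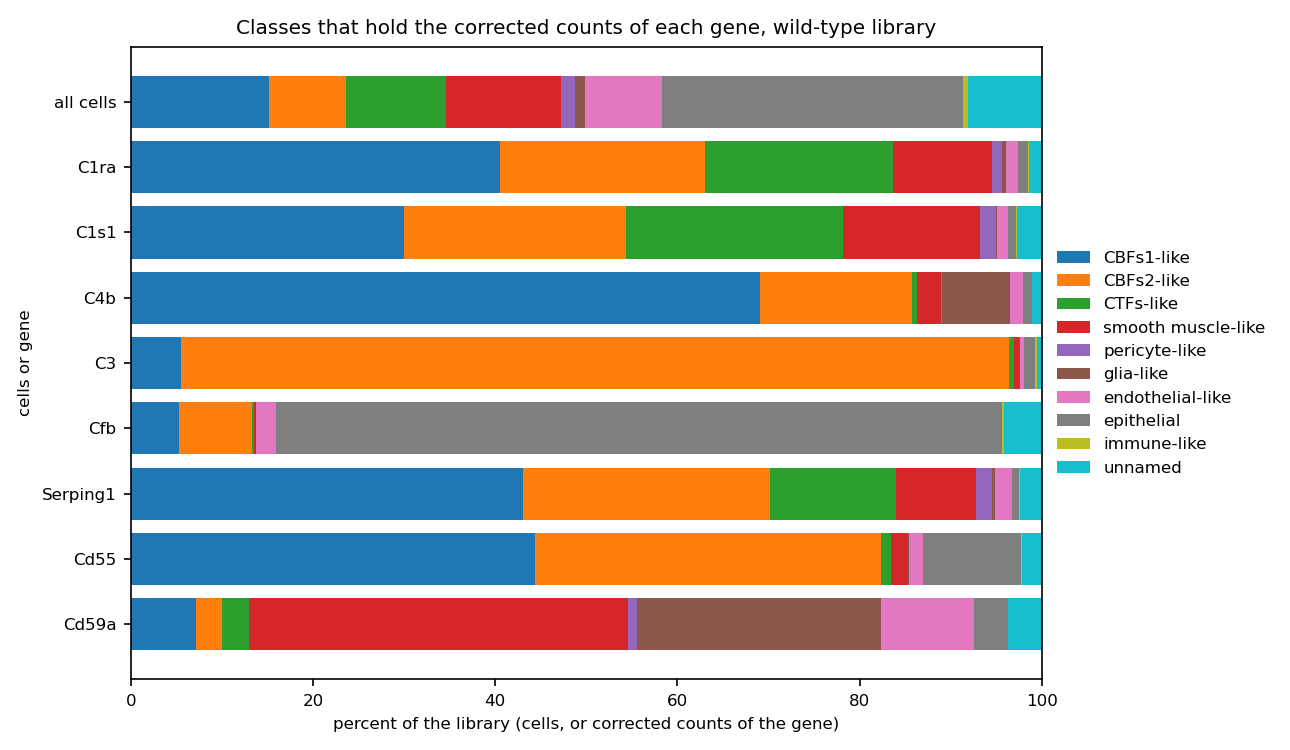
Share of the wild-type cells (top bar) and of the corrected counts of each gene (other bars) held by each class, in percent. Fibroblast classes hold over 78% of the counts of 6 genes; epithelial cells hold 79.7% of Cfb.

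C1ra and C1s1, the proteases at the start of the classical path, were carried by all fibroblast types and, at lower levels, by muscle and pericytes. In the wild-type library the mean of C1ra was 2.63 in CBFs1-like, 2.58 in CBFs2-like and 1.87 in CTFs-like cells, then 0.842 in smooth muscle-like, 0.622 in pericyte-like and 0.474 in glia-like cells. C1s1 was highest in CBFs2-like cells at 6.29, followed by CTFs-like cells at 4.80 and CBFs1-like cells at 4.36, with 2.62 in smooth muscle-like and 2.44 in pericyte-like cells, and at most 0.0805 in any epithelial class. Nearly every fibroblast carried C1s1. The share above 0 of C1s1 was 97.0% in CBFs2-like (interval 95.4 to 98.2) and 96.7% in CBFs1-like cells (95.4 to 97.6), whose intervals overlap, and 93.4% in CTFs-like cells (91.4 to 94.98). For C1ra the shares were 86.2% in CBFs1-like, 77.8% in CBFs2-like and 70.3% in CTFs-like cells, with intervals that do not overlap. The CBFs2-like value depends on the low-complexity cluster: the other 505 cells were at 87.9% (84.8 to 90.6), which overlaps CBFs1-like cells (84.0 to 88.1), so the crypt bottom types are not ordered for C1ra. Both genes were above 0 in the same cell in 84.0% of CBFs1-like, 76.7% of CBFs2-like and 66.9% of CTFs-like cells, against 44.2% of smooth muscle-like and 26.9% of pericyte-like cells.

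In the reporter library C1s1 did not separate the types. It was above 0 in 75.4% of CBFs1-like, 72.7% of CBFs2-like and 75.3% of CTFs-like cells, with intervals that all overlap. C1ra was above 0 in 61.2% of CBFs1-like and 58.0% of CTFs-like cells, whose intervals overlap, and in 48.1% of CBFs2-like cells (44.7 to 51.5), which lay lower.

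The pair also sits side by side in the genome. In GRCm38 with the GENCODE annotation, C1ra (ENSMUSG00000055172.10) is at chr6:124512405-124523443 on the plus strand and C1s1 (ENSMUSG00000038521.17) at chr6:124530345-124542359 on the minus strand, 6901 bases apart with no other coding gene between them. Over the 14 wild-type classes, their log2 means had a Pearson r of 0.952; the classes share 1 library, and r is only a description. The RefSeq promoter table (GRCm38.p6) held 5 of the 8 members: C3, C1s1, C1ra, Cd55 and Cd59a. The 250 bases before the outer of the C1s1 starts are shown as the window of a gene on in all fibroblast types, on the minus strand at chr6:124542360-124542609, with capitals for its match to the C/EBP motif.
C1s1: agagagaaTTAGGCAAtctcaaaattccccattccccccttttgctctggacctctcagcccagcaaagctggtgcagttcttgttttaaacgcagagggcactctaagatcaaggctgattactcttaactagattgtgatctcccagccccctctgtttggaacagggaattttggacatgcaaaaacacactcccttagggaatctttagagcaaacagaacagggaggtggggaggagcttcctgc
Windows of 250 bases before each start were searched on both strands for 4 motifs: C/EBP (TTGCNNAA, in 9.56% of 32851 RefSeq promoters), GAS (TTCNNNGAA, 7.02%), the interferon element (GAAA, 2 bases of any kind, then GAAA again, 2.98%) and the NF-kB consensus (3.9%). The C1s1 match lies 242 to 235 bases before the start, on the strand opposite to the gene, and the window of the second listed C1s1 start does not reach it. No match to the 4 motifs was in the C1ra or Cd55 windows. The C1ra window, chr6:124512371-124512620, lies mostly inside the GENCODE gene, so few bases before the GENCODE start were searched. Cd59a had an interferon element 187 to 178 bases before its start, and no matches overlapped. A match is a string of letters and not a measured site.

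C4b, whose product is cut by the C1 proteases and forms part of the enzyme that cuts C3, separated the fibroblast types and was highest outside them. Glia-like cells had the highest wild-type mean, 6.36, with 88.5% of the 78 cells above 0 (interval 79.2 to 94.6). CBFs1-like cells followed with a mean of 4.09 and 71.0% above 0 (68.3 to 73.6), then CBFs2-like cells with 1.75 and 30.0% (26.5 to 33.8). CTFs-like cells, at 0.0466 and 2.58% (1.60 to 3.91), were close to the epithelial share of 1.41% (0.987 to 1.96), with overlapping intervals. C4b was thus a gene of crypt bottom fibroblasts, type 1 above type 2, and of glia. Within CBFs2-like cells it was uneven: the tenth of cells with the highest values held 72.2% of the C4b counts, against 42.05% in CBFs1-like cells.

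The order of types was the same in the reporter library, where C4b was above 0 in 73.3% of CBFs1-like (71.6 to 74.9), 39.9% of CBFs2-like (36.6 to 43.3) and 12.7% of CTFs-like cells (10.2 to 15.5). The last interval overlaps that of the epithelial-like cells (11.5%, 4.35 to 23.4), and the CBFs2-like interval that of the immune-like cells (30.1%, 21.8 to 39.4). The means were 1.93, 1.01 and 0.214.

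C3, the protein on which all paths meet, was the member with the largest share of its counts in a single class. CBFs2-like cells had a wild-type mean of 14.3, with a median of 10 and a 90th percentile of 36 over cells, and 76.4% of them were above 0 (72.9 to 79.6). CBFs1-like cells had a mean of 0.485 and 15.2% above 0 (13.1 to 17.4). The 40 immune-like cells were near them, with a mean of 0.525 and 12.5% above 0 (4.19 to 26.8). CTFs-like cells had a mean of 0.0687 and 1.23% above 0 (0.590 to 2.25), an interval that overlaps the epithelial one (1.05%, 0.687 to 1.54), so C3 was not detectable in them beyond the epithelial share. The 8.53% of cells that were CBFs2-like held 91.0% of all C3 counts of the library. Inside that class the larger cluster had a mean of 17.0 and the low-complexity cluster 4.19; without the latter, the log2 ratio to CBFs1-like cells rose from 4.85 to 5.10.

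Reporter cells kept the order, with C3 in many CBFs1-like cells as well. It was above 0 in 80.0% of CBFs2-like cells (77.2 to 82.7, mean 4.40), in 40.0% of CBFs1-like cells (38.1 to 41.8, mean 0.864) and in 5.78% of CTFs-like cells, below the 11.5% of epithelial-like cells. The 2 CTFs-like clusters differed: C3 was above 0 in 2.71% of 516 cells and 18.5% of 124 (12.1 to 26.5), C4b in 9.30% and 26.6%, and the Serping1 means were 2.03 and 5.32, with medians of 1444 and 1816 genes. Both crypt bottom shares lay above those of the epithelial-like and the immune-like cells (23.9%, 16.4 to 32.8).

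The C3 gene (ENSMUSG00000024164.15) lies at chr17:57203970-57228136 on the minus strand. Its window at chr17:57228137-57228386, shown for the member most tied to a single fibroblast type, holds a C/EBP match 45 to 38 bases before the start, in capitals.
C3: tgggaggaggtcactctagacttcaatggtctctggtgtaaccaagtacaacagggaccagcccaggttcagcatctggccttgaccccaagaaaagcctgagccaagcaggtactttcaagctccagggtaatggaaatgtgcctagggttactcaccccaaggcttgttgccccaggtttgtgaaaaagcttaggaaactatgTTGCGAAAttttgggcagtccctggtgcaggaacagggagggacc
The promoter of Saa3, an acute phase gene used further on, holds a C/EBP match as well, 99 to 92 bases before its start, and an interferon element at 125 to 116 bases.

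Among fibroblasts, C3 and C4b were highest in different crypt bottom types, yet within a type C4b was more frequent in cells with C3 than in cells without. Among wild-type CBFs1-like cells, C4b was above 0 in 84.3% of the 172 cells with C3 (78.0 to 89.4) and in 68.6% of the 963 cells without (65.6 to 71.6). Among CBFs2-like cells the shares were 34.8% (30.6 to 39.2) and 14.6% (9.36 to 21.2). The cells with C3 also had more genes, with medians of 2815.5 against 2658 and of 2757 against 1865, as did those among reporter CBFs1-like cells (1506 against 1362), where the C4b shares were 83.0% (80.6 to 85.2) and 66.8% (64.5 to 69.1). Among reporter CBFs2-like cells those with C3 had fewer genes (1155 against 1252.5) and a higher C4b share, 46.0% (42.3 to 49.9) against 15.3% (10.2 to 21.6). The parts of depth and of the low-complexity cluster were not tested.

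Cfb, factor B of the alternative path, had most of its counts in epithelial cells of the wild-type library. Its mean was 0.190 in epithelial cells of unnamed type, 0.177 in goblet-like, 0.170 in enterocyte-like and 0.0896 among dividing, transit-amplifying-like cells, but only 0.0230 in enteroendocrine-like cells. It was above 0 in 14.6% of all epithelial cells (13.2 to 16.0). Among fibroblasts it was above 0 in 5.16% of CBFs2-like (3.58 to 7.18), 1.59% of CBFs1-like (0.943 to 2.49) and 0.123% of CTFs-like cells (0.00311 to 0.682). CTFs-like cells and smooth muscle-like cells (0.105%) had low shares at similar depth (medians of 2434 and 2622 genes, against 2603), so the CBFs2-like share of Cfb was above theirs while remaining low; none of the 119 pericyte-like, 78 glia-like and 45 lymphatic endothelial-like cells had Cfb. The blood endothelial-like cells were at 1.69%, but a cluster of 97 among them, led by Selp and Madcam1, was at 10.3% (5.06 to 18.1) with a mean of 0.103. Among reporter cells Cfb was above 0 in 10.5% of CBFs1-like (9.38 to 11.7) and 7.98% of CBFs2-like cells (6.25 to 10.0), whose intervals overlap, and in 1.72% of CTFs-like cells. The epithelial-like cells there, at 3.85% (0.469 to 13.2), and the immune-like cells, at 7.96% (3.71 to 14.6), overlap both crypt bottom types. The reporter shares by type are therefore not read as expression. The CBFs1-like share was uneven over its clusters. A cluster of 534 cells was at 23.0% (19.5 to 26.8), above both, and those of 1221 and 997 cells were at 6.47% and 8.73%. The 534 cells also had more genes, with a median of 1868 against 1273 and 1379. Cfb (ENSMUSG00000090231.10, chr17:34856374-34862518) and C4b (ENSMUSG00000073418.4, chr17:34728380-34743882) are 112491 bases apart with 5 coding genes between them, but their class means did not run together (r of -0.39 over 14 classes).

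Serping1, whose product inhibits C1r and C1s, ran parallel to the protease genes over the classes. It is ENSMUSG00000023224.12 at chr2:84765387-84775444. The wild-type means were 14.6 in CBFs2-like, 13.1 in CBFs1-like and 5.86 in CTFs-like cells, then 4.99 in pericyte-like, 3.17 in smooth muscle-like, 2.56 in lymphatic endothelial-like and 1.49 in glia-like cells. Every named class outside the epithelium had at least 25% of cells above 0, with 94.96% in pericyte-like and 89.99% in smooth muscle-like cells. The shares of CBFs1-like (99.8%) and CBFs2-like cells (99.7%) have overlapping intervals, and CTFs-like cells lay lower at 96.7% (95.2 to 97.8). Over the 14 classes the r of Serping1 was 0.951 with C1ra and 0.938 with C1s1. Reporter means were 5.79 in CBFs2-like, 5.21 in CBFs1-like and 2.67 in CTFs-like cells.

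Cd55, which speeds the decay of the C3-cutting enzymes on host membranes, was split by fibroblast type in both libraries. The gene (ENSMUSG00000026399.12, chr1:130439027-130462744) had a wild-type mean of 7.60 in CBFs2-like and 4.99 in CBFs1-like cells but 0.169 in CTFs-like cells. The shares above 0 were 86.1% (83.1 to 88.7) and 82.8% (80.5 to 85.0), whose intervals overlap, and 9.69% (7.75 to 11.9). Without the low-complexity cluster, CBFs2-like cells were at 90.1% (87.2 to 92.6), above CBFs1-like cells. Cd55 was also the only member besides Cfb with a clear epithelial signal: enterocyte-like cells had a mean of 1.18 and 43.9% above 0, and epithelial cells of unnamed type had 0.802 and 41.2%. Of the enterocyte-like clusters, the 211 cells led by Atp12a and Saa1 had a mean of 2.56 and the other 470 had 0.555. Pericyte-like cells, at 2.52% (median 2102 genes), had the lowest share of Cd55. In the reporter library Cd55 was above 0 in 65.8% of CBFs2-like (62.5 to 69.0), 57.8% of CBFs1-like (56.0 to 59.7) and 2.97% of CTFs-like cells (1.80 to 4.60). The immune-like cells there were at 31.9% (23.4 to 41.3) and the epithelial-like cells at 9.62% (3.20 to 21.0). Both crypt bottom shares lay above these, and the CTFs-like interval overlaps the epithelial-like one.

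Cd59a, which blocks the pore, was at a low level in fibroblasts and high in glia (ENSMUSG00000032679.12, chr2:104095801-104115354). Glia-like cells had a mean of 5.42 and 98.7% above 0 (93.1 to 99.97), smooth muscle-like cells 0.691 and 41.3% (38.2 to 44.5), and blood endothelial-like cells 0.266 and 19.0%. Fibroblasts had a mean of 0.0792, with 9.25% above 0 in CBFs1-like (7.63 to 11.1), 5.63% in CBFs2-like (3.98 to 7.71) and 5.15% in CTFs-like cells (3.74 to 6.90), of which neighbours overlap; epithelial cells were at 2.10%. Reporter CBFs1-like cells had 6.25% above 0 (5.37 to 7.22), against 1.41% in CBFs2-like and 1.09% in CTFs-like cells, whose intervals overlap. The immune-like cells there, at 4.42% (1.45 to 10.0), overlap CBFs1-like cells, so these shares are not read as expression either.

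**Figure D3:**
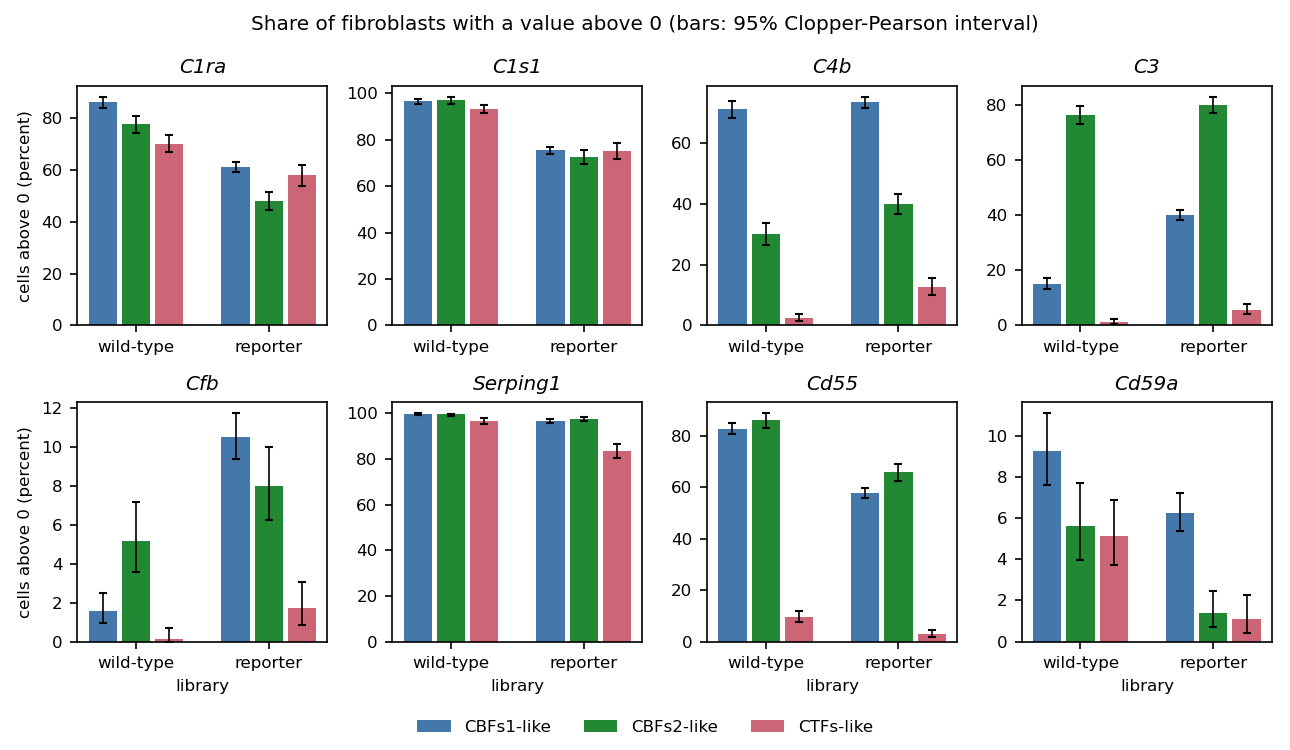
Percent of cells with a corrected count above 0 (vertical axis, from 0) for each gene in the 3 fibroblast types of each library (horizontal axis); bars carry 95% Clopper-Pearson intervals. C3, C4b and Cd55 separate the crypt bottom types from CTFs-like cells in both libraries; for C1s1 the crypt bottom intervals overlap those of CTFs-like cells in the reporter library only.

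Several members have near copies elsewhere in the mouse genome, and reads from a copy can be lost or misplaced. Of the 60-base words in the last 500 bases, C4b shared 32.4% with C4a, C1ra 17.2% with C1rb and C1s1 13.8% with C1s2, while Cd55 and Cd59a shared none with Cd55b and Cd59b. C4a was listed in neither library. C1s2 had a sum of 10 corrected counts in the wild-type library, against 16488 for C1s1, and Cd59b had 279, against 1579 for Cd59a. The levels of C4b, C1ra and C1s1 are therefore uncertain. Shared words are not a share of reads, and the size of the error was not measured.

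Ratios of class means were taken on the log2 scale with 0.01 added to each mean, among genes with a mean of at least 0.02 over the cells of both classes together, and 2-fold was the size counted. Crypt bottom (CBFs-like, both types) against CTFs-like cells of the wild-type library gave 5 of 8 members at least 2-fold higher, where 7.48% of the 11441 genes tested were. They were C3 (log2 ratio 6.12), C4b (5.85), Cd55 (5.05), Cfb (1.98) and Serping1 (1.22); C1ra was at 0.48 and C1s1 at 0.07. No member was at least 2-fold lower, against 4.97% of genes. Cfb had means of 0.0344 in crypt bottom and 0.00123 in CTFs-like cells. It thus passed the filter only through the class where it was high, and adds no support to the count. The median log2 ratio was 1.60 over the members and 0.04 over all genes tested. Cfb was at 0.59 when each cell was thinned to 1000 corrected counts, but the 0.01 added largely sets this value. Its thinned means were 0.00264 in CBFs1-like, 0.00939 in CBFs2-like and 0 in CTFs-like cells. Thinned means are smaller, so the 0.01 weighs more in every ratio after thinning.

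The same comparison in the reporter library also gave 5 of 8 members higher, against 5.44% of 9486 genes, and none lower, against 4.55%. These were Cd55 (5.03), C3 (3.90), C4b (2.94), Cfb (2.23) and Cd59a (1.62). Serping1 was just under the size counted at 1.00 and passed it in 4 of the alternatives, at 1.01 to 1.04. Cd59a fell to between 0.72 and 0.86 in 3 alternatives. C3, C4b and Cd55 were on the crypt bottom side in both libraries. Cfb and Cd59a are counted by the rule, but their shares by reporter type were not read as expression. Both also passed the filter only through crypt bottom cells, and so add no support to the count. Their means were 0.125 and 0.0544 there, against 0.01875 and 0.0109 in CTFs-like cells.

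Between the crypt bottom types of the wild-type library, 2 of 8 members were at least 2-fold higher in CBFs2-like cells, C3 (4.85) and Cfb (1.12), against 5.05% of genes. C4b was lower, at -1.22, as 1 of 8 against 4.62% of genes. Thinning brought Cfb to 0.62 and C4b to -0.98 with the 0.01 added. The thinned Cfb means themselves, 0.00939 in CBFs2-like and 0.00264 in CBFs1-like cells, stayed more than 2-fold apart. Those of C4b were 0.238 and 0.478. In the reporter library C3 alone was higher, at 2.34, against 2.81% of genes, and Cd59a alone lower, at -1.60, against 6.27%; C4b was at -0.92 and Cfb at -0.32. Cd59a passed the filter only through CBFs1-like cells, with a mean of 0.0665 there and 0.0153 in CBFs2-like cells. Thinning brought Cd59a to -0.92 with the 0.01 added. The thinned Cd59a means themselves, 0.00587 in CBFs2-like and 0.01999 in CBFs1-like reporter cells, stayed more than 2-fold apart.

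Fibroblasts against epithelial cells of the wild-type library gave 7 of 8 members higher, against 16.9% of 12825 genes, from Serping1 (6.54) and C1s1 (6.23) to Cd55 (2.87) and Cd59a (1.40). Cfb was the 1 member lower, at -2.21, against 35.1% of genes. The members had been listed as genes of connective tissue cells, with earlier results of these data known, so the count of higher members restates that choice. With thinning Cd59a was at 0.87 and Cfb at -0.89, but the 0.01 added is a large part of both ratios, so they show no smaller fold. The thinned epithelial means were 0.00162 for Cd59a and 0.0149 for Cfb. In CBFs1-like, CBFs2-like and CTFs-like cells they were 0.0167, 0.00469 and 0.00859 for Cd59a. For Cfb they were 0.00264, 0.00939 and 0.

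Against smooth muscle-like cells, 5 of the 7 members that passed the filter were higher in fibroblasts, against 10.1% of 11467 genes. They were C3 (6.01), Cd55 (3.99), C4b (3.53), Serping1 (1.82) and C1ra (1.49), while C1s1 was at 0.92 and reached 1.08 with thinning. Cd59a was the 1 member lower, at -2.98, against 5.69% of genes, and Cfb did not pass the filter, with means of 0.0239 in all fibroblasts and 0.00105 in smooth muscle-like cells.

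**Figure D4:**
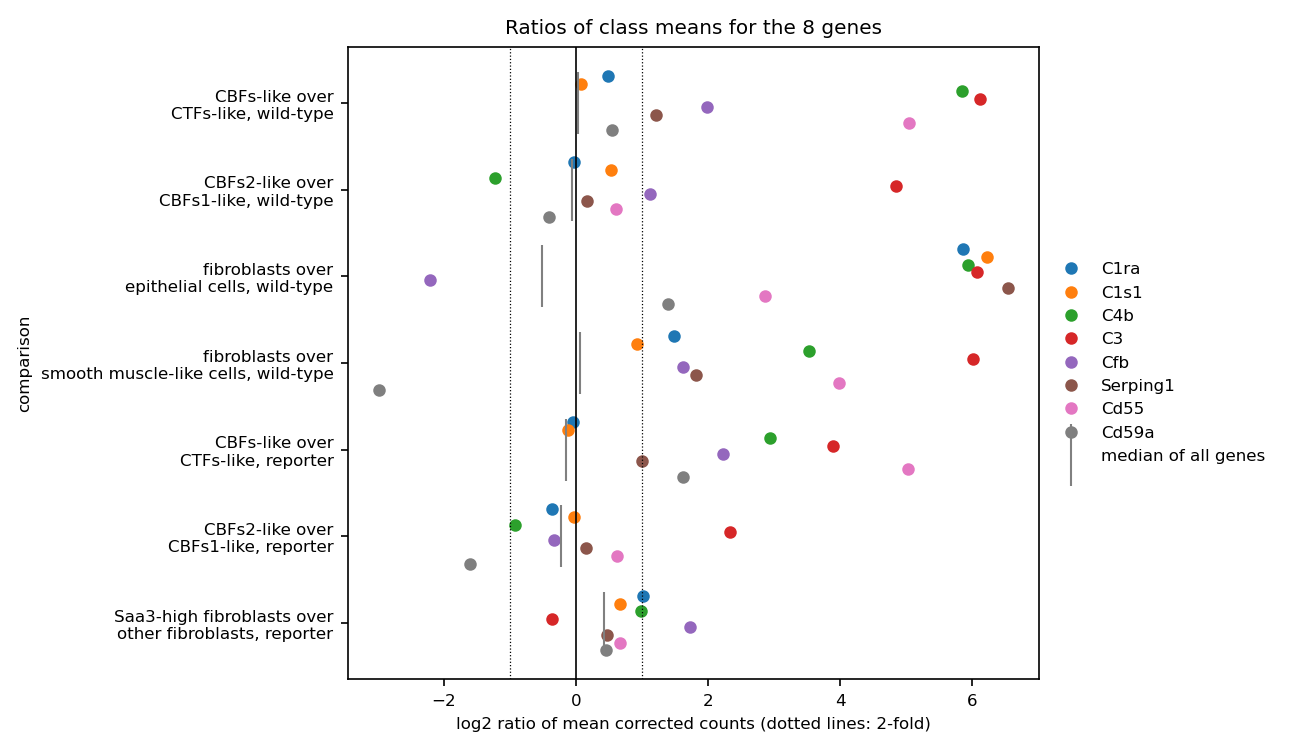
Log2 ratio of mean corrected counts (horizontal axis) for the 8 genes in the 7 comparisons (vertical axis); dotted lines mark 2-fold and grey bars the median of all genes tested. C3 lies beyond 2-fold in each of the first 6 comparisons, and Cfb and Cd59a change sides between them.

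The order of the 3 fibroblast types by mean was the same in both libraries for 5 of 8 members, against 41.2% of 9179 genes: C3, C4b, Serping1, Cd55 and Cd59a. For 6 of 8, against 58.1% of genes, the same type was highest, which adds C1ra, though only with the low-complexity cluster, since the other 505 CBFs2-like cells had a C1ra mean of 2.93 against 2.63 in CBFs1-like cells. C1s1 and Cfb changed their highest type, with C1s1 at 1.91 in CTFs-like, 1.77 in CBFs1-like and 1.74 in CBFs2-like reporter cells. Members above 0 were also counted in each cell, a count that follows in part from the share of each gene and was not compared with other genes. A median of 5 of the 8 were above 0 in CBFs1-like and CBFs2-like wild-type cells and 3 in CTFs-like and smooth muscle-like cells; at least 6 were above 0 in 27.2% of CBFs2-like (23.8 to 30.9), 15.9% of CBFs1-like (13.9 to 18.2) and 0.123% of CTFs-like cells. The crypt bottom types had the opposite order among reporter cells, with 19.1% of CBFs1-like (17.6 to 20.6) and 16.3% of CBFs2-like cells (13.9 to 19.0), whose intervals overlap.

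Of the 58 listed complement genes, 46 were in the wild-type table and 23 had a class mean of at least 0.5; 7 of these were highest in a fibroblast type, against 8.89% of the 6684 genes with such a mean, and most of the 7 are members, listed as connective tissue genes. Among those that are not members was Colec12, encoding a scavenger collectin, at 1.28 in CBFs2-like and 0.887 in CBFs1-like cells. The genes for the C1q chains, which bind C1r and C1s, were immune genes: C1qa had a mean of 8.53, C1qb 8.75 and C1qc 6.18 in immune-like cells and at most 0.0575 in any other class. Immune-like cells were also highest for Cfp (0.675), encoding properdin, and for the receptor genes Itgb2 (1.25), Itgax (0.900) and C5ar1 (0.525). Vtn (3.46) and Colec11 (0.941) were highest in pericyte-like cells, and Clu (3.29), Cd93 (2.35) and Cr1l (0.966) in blood endothelial-like cells. Csmd1 (1.23) was highest in glia-like and Cpn1 (0.770) in enteroendocrine-like cells. None of the 5 terminal path genes in the table reached a mean of 0.5. The classical path was thus divided in the RNA of this library. The proteases and C3 were highest in fibroblasts, C4b in glia-like cells followed by CBFs1-like cells, and C1q in immune-like cells. In the reporter library 36 listed genes were in the table and 9 reached 0.5. Of these, 6 were highest in a fibroblast type, against 46.4% of 1667 genes. All 6 are members, listed as connective tissue genes, so this count restates that choice. The other 3 were C1qa, C1qb and C1qc.

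Among non-members of the list that passed the filter, 4 of 11 were higher and 3 of 11 lower in crypt bottom than in CTFs-like wild-type cells. Of all genes tested, 7.48% were higher and 4.97% lower. Among the higher ones were C2 (1.79), Vtn (1.52) and Colec12 (1.17), and the lower ones were C5ar1 (-2.71), Clu (-2.47) and Cpn1 (-1.93). For Vtn this came from CBFs2-like cells (mean 0.0876), since CBFs1-like cells (0.00176) lay below CTFs-like cells (0.00491). The CTFs-like means of Vtn and C2 (0.0160), and the crypt bottom mean of Cpn1 (0.0130), were under the filter of 0.02. These genes passed it only through the class where they were high. C2, whose product pairs with C4b, thus lay on the same side as C4b in this comparison. Between the crypt bottom types C2 was higher in CBFs2-like cells (0.65), where C4b was lower (-1.22). Its mean was 0.0595 in all fibroblasts and 0.0448 in epithelial cells.

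Likeness was measured as Pearson r of log2 class means (0.1 added) over the 14 wild-type classes among 6684 genes, and the 3 most alike were named. For C3 they were Gfpt2 (0.953), Adamtsl3 (0.949) and Pcolce2 (0.949), and for C4b Abca8a (0.934), Sfrp1 (0.926) and Aldh1a3 (0.914). C1ra was most like the matrix genes Pcolce (0.986), Col1a2 (0.983) and Col3a1 (0.978), C1s1 like Aspn (0.975), Ms4a4d (0.968) and Ecm1 (0.966), and Serping1 like Aebp1 (0.978), Lamc1 (0.976) and Bgn (0.970). Those for Cfb were BC030870 (0.949), Ovol1 (0.943) and 5730559C18Rik (0.943), and those for Cd59a were Mmp17 (0.952), Paqr6 (0.948) and Nlgn3 (0.945). Cd55 had no close match, with S100a10 (0.829), Hsd11b1 (0.827) and Kcnk2 (0.824).

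Saa3, an acute phase gene, served as the mark of inflamed fibroblasts in the reporter library, and few cells carried it. Cells without it were not free of inflammation genes. Of the 4122 fibroblasts with Saa3 at 0, 69.2% had Cxcl1, 39.4% Cxcl10 and 28.1% Il6 above 0. Others were rarer in them, such as Cxcl2 (13.0%), Cxcl9 (11.4%) and Lcn2 (0.170%). A lack of Saa3 is therefore not read as a lack of inflammation. Saa3 was above 0 in 122 of 4244 fibroblasts (2.87%, interval 2.39 to 3.42), at exactly 1 in 64 of them and at 10 or more in 34. The highest cell had 311, and 5 cells held 42.1% of all Saa3 counts of the fibroblasts. The fibroblast cluster with the highest mean, 1.15, consisted of 534 CBFs1-like cells, of which 32 (5.99%, interval 4.13 to 8.35) were above 0. Another CBFs1-like cluster of 1221 cells had a mean of 0.758 and 3.85% above 0 (2.84 to 5.09), and a CTFs-like cluster of 124 cells had a mean of 1 and 5.65% above 0 (2.30 to 11.3), so the 3 intervals overlap. The first cluster is called Saa3-high by its mean alone, and 502 of its 534 cells showed no Saa3. The cluster of 1221 cells held more of the Saa3 counts of the library, 46.8% against 31.0%, and 22 against 17 cells with Saa3 of at least 4. The other fibroblasts that the Saa3-high cluster is compared with thus include most cells with much Saa3. Outside fibroblasts, the 113 immune-like cells had a higher mean, 1.69, with 4.42% above 0 (1.45 to 10.0). The 52 epithelial-like cells were at 3.85% (0.469 to 13.2). Both intervals overlap that of the Saa3-high cluster, so its share above 0 is not set apart from cells that are not fibroblasts. In the wild-type library Saa3 was above 0 in 1.76% of CBFs1-like, 0.782% of CBFs2-like and 1.23% of CTFs-like cells, against 5.87% of enterocyte-like cells.

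Other genes of inflammation were higher in the Saa3-high cluster than in the other 3710 fibroblasts. Of the listed acute phase and NF-kB genes, 9 of the 18 that passed the filter were at least 2-fold higher, but 1 of the 9 is Saa3, by which the cluster was chosen. Of the interferon genes 20 of 29 were, and none was lower on either list. Among all genes tested 5.96% were higher and 1.25% lower, and their median log2 ratio was 0.43. The largest ratios on the lists besides Saa3 itself (1.83) were Cxcl5 (2.57), Cxcl9 (2.30), Cxcl2 (2.04) and Gbp4 (1.88). Only complement genes had been kept out of the clustering, and Cxcl5, Cxcl9 and Cxcl2 are also its leading genes, so these counts describe how the cells were grouped. Cells of the cluster also had more genes, with a median of 1868 against 1381 over all fibroblasts, and the part of this in the ratios was not tested.

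Against this background 2 of 8 members were at least 2-fold higher in the Saa3-high cluster, Cfb (1.73) and C1ra (1.01), where 5.96% of genes were. The count was lower with class sums per 10000 and with thinning. No member was lower, against 1.25% of genes. The median log2 ratio was 0.66 over the members and 0.43 over all genes tested. C4b was at 0.98, Cd55 and C1s1 at 0.66, Serping1 at 0.47, Cd59a at 0.45 and C3 at -0.36. Relative to the median of all genes, Cfb was the member that stood out, above 0 in 23.0% of the cluster (19.5 to 26.8). With a higher clustering resolution or 15 principal components, the cluster with the highest Saa3 mean was a different group of cells, 649 or 212 in number, and no member was 2-fold higher; Cd55 was then at -2.00 and -3.24, and C3 at -1.20 and -1.02. Of the non-members, 4 of 6 were higher in the cluster of 534 cells, against the same 5.96% of genes, namely Clu (1.67), C2 (1.58), Cr1l (1.16) and C1rl (1.05).

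Cells were therefore also taken by their own Saa3 value, a choice made after the data were seen. The 47 fibroblasts with Saa3 of at least 4 were set against the 4122 with none, and 1 of 8 members was higher, Cfb at 2.21, against 10.4% of 9461 genes. Cd55 was lower at -1.77, as 1 of 8 against 8.7% of genes. Since 1 of 8 is close to the share of all genes on either side, these counts say nothing about the members as a set, and the values only describe few cells. C1ra was at 0.95, C1s1 at 0.81, C4b at 0.71, Serping1 at 0.58, Cd59a at 0.38 and C3 at 0.23.

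The same cells were also compared inside the 2 clusters that held most of them. In the cluster of 1221 CBFs1-like cells, 22 cells with Saa3 of at least 4 had a Cfb mean of 0.5 against 0.0681 in 1174 cells without, and a Cd55 mean of 0.227 against 1.04. In the Saa3-high cluster, 17 such cells had a Cfb mean of 0.706 against 0.281 in 502, and a Cd55 mean of 0.412 against 2.00. The log2 ratios in the larger cluster and in the Saa3-high cluster were 0.88 and 0.73 for C3, 1.14 and 0.33 for C1ra, 1.03 and 0.42 for C1s1, 0.47 and 0.40 for Serping1, and 0.39 and -0.19 for C4b. Cd59a was at 0 in all 22 cells of the larger cluster, so no ratio is given.

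Bins of the Saa3 value, set after most values above 0 proved to be 1, hold the same cells again and are no separate test. Cfb was above 0 in 8.32% of the 4122 cells without Saa3 (7.50 to 9.21), 10.9% of the 64 cells at 1 (4.51 to 21.2), 20.8% of the 24 cells at 2 to 9 (7.13 to 42.2) and 38.2% of the 34 cells at 10 or more (22.2 to 56.4). Cd55 ran the other way, with 51.6% (50.04 to 53.1), 46.9% (34.3 to 59.8), 29.2% (12.6 to 51.1) and 26.5% (12.9 to 44.4). For both genes the neighbouring bins overlap and the first and last do not. The 34 cells of the last bin are among the 47 above, so this describes the same few cells. C1ra, C1s1, C4b and C3 were above 0 in more cells of the last bin than of the first: 91.2% against 57.7%, 97.1% against 74.5%, 85.3% against 57.2% and 73.5% against 42.6%. Median genes per cell came to 1376 without Saa3 and 1830 at 10 or more, and the part of this in the shares was not tested.

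**Figure D5:**
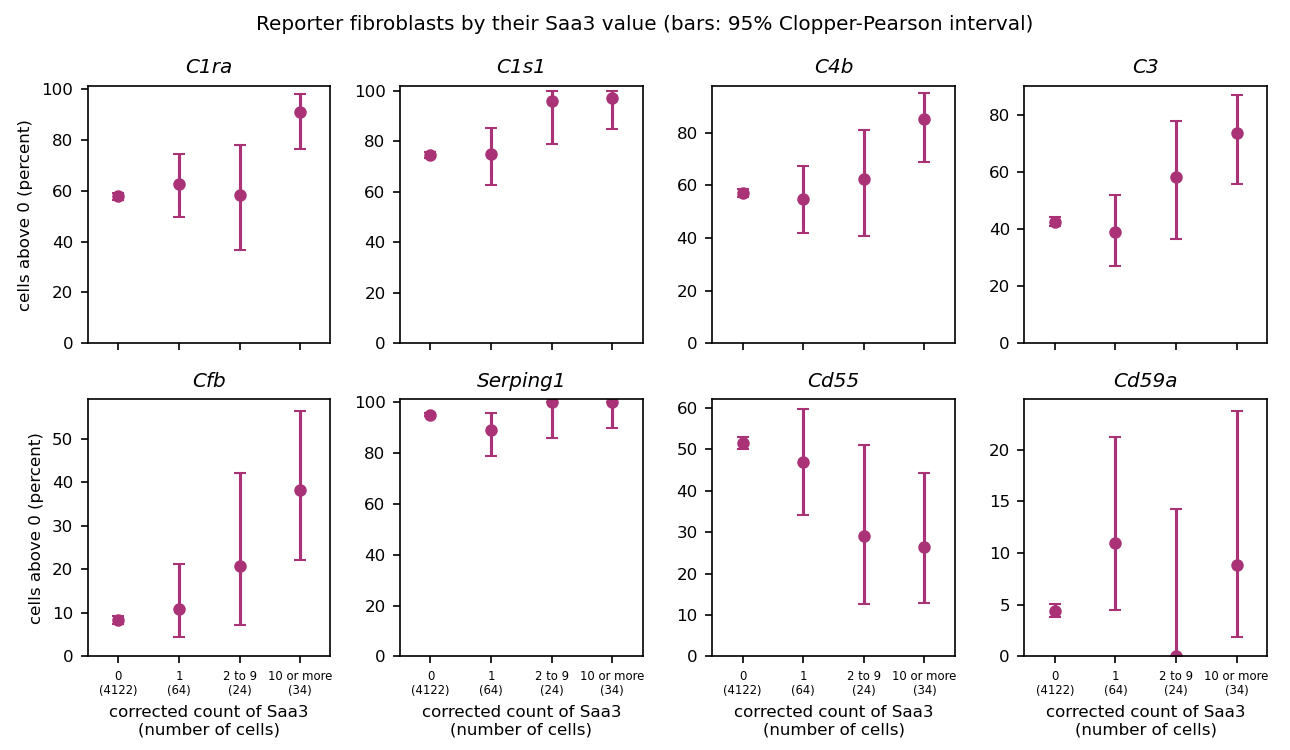
Percent of reporter fibroblasts above 0 for each gene (vertical axis, from 0) in 4 bins of the corrected count of Saa3 (horizontal axis, number of cells in brackets), with 95% Clopper-Pearson intervals. Cfb goes up from 8.32% to 38.2% and Cd55 goes down from 51.6% to 26.5%.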

How the data were processed

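Per the labels and the study's methods, the authors counted UMIs with Cell Ranger against mm10 and ran SCTransform in Seurat 3.1 under R 3.6.2. The deposited tables hold whole-number corrected counts, treated here as a score and not as raw counts, and their natural log after 1 was added; the authors made both. Intervals for summed counts do not suit this unit and were not computed. The natural log values deposited were clustered with Seurat 5.3.0 in R 4.3.3, using 30 principal components and resolution 0.45 (wild-type) or 0.3 (reporter). Of 22 lists, those with a mean log2 ratio of at least 1 to the other clusters and 3 or more markers passed. A cluster took the class of the highest list that passed, and stayed unnamed if a list of another class passed with 0.5 or more of its markers. Without a passing list it needed 9 of 10 fibroblast markers. Fibroblast types needed a relative score of 0.5, and epithelial types were not named in the reporter library. This rule was set after the clusters were seen, and the members and lists were chosen with earlier results of these data known. Means, ratios, intervals and motif searches used Python 3.11.15, numpy 2.4.6, scipy 1.17.1 and pandas 2.3.3. Doublets were scored with Scrublet in scanpy 1.11.5. Genes of the list with a class mean of at least 0.5 were named, except 1 that is not reported here. Of the table's symbols, 97.7% (wild-type) and 97.6% (reporter) matched GENCODE. The ratio step was tested on simulated data.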

Additional observations from a re-analysis of the deposited data

How the results depend on the processing

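Of 76 counts of higher members under alternative settings, 65 stayed within 1.5 times the reported count and 11 did not. Of 496 log2 ratios of single members, 467 stayed on the same side of 2-fold, 27 crossed it and 2 that had been past it changed sign; values near 0 could change sign without being counted. The counts of higher members for crypt bottom against CTFs-like cells in both libraries, and for fibroblasts against epithelial and smooth muscle-like cells, stayed within 1.5 times under every alternative run. Lower members are not in these counts. Thinning brought Cfb to -0.89 against epithelial cells, with the 0.01 added. Between the crypt bottom types it brought C4b to -0.98 (wild-type) and Cd59a to -0.92 (reporter). All are under 2-fold, but the 0.01 added weighs more on thinned means and makes these ratios smaller. The thinned Cd59a means were 0.00587 in CBFs2-like and 0.01999 in CBFs1-like reporter cells, more than 2-fold apart. Those of Cfb were 0.0149 in epithelial cells and 0.00264, 0.00939 and 0 in CBFs1-like, CBFs2-like and CTFs-like cells. For CBFs2-like against CBFs1-like cells, the wild-type count of 2 higher became 1 with each cell thinned to 1000 corrected counts and 1 at 3-fold, and the reporter count of 1 became 2 at 1.5-fold.

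The Saa3-high count of 2 depended most on the settings. It became 0 at the higher clustering resolution and 0 with 15 principal components, where other cells formed the cluster. It became 1 with class sums per 10000, 1 with thinning, 5 at 1.5-fold and 1 at 3-fold. Saa3 above 0 in place of the cluster gave 1; this stands for the planned top 5%, since only 122 fibroblasts were above 0. Saa3 of at least 4, added after seeing the data, gave 1. At the higher resolution C1ra turned to -0.0751 and Cfb to -0.22; the cause was not tested.

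Scrublet was run on corrected counts, where its scores may not work, and called only 7 wild-type and 5 reporter cells doublets. Leaving out the 6% highest scores was therefore added after seeing the data, as was leaving out the low-complexity CBFs2-like cluster. Neither moved a count. Without that cluster the C1ra ratio of CBFs2-like to CBFs1-like cells turned from -0.03 to 0.16. Low means such as those of Cfb in fibroblasts are limited by depth, and pooled mice give no spread between animals.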
